A study of Mus musculus with 18 samples.

Results

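The KO-labelled line titled 8h2h was compared with the same line titled 0h, on 6 of the 18 arrays of the series, 3 in each group, taken by their titles. The cells were mouse embryonic stem cells of strain 129SV, labelled as an Esrrb knockout that expresses Raf-ErT2, a Raf kinase fused to an oestrogen receptor domain that 4-hydroxytamoxifen (4OHT) switches on. Every group carried both alterations, the untreated cells included. The KO-labelled line also held an empty control vector, and the Rescue-labelled line an Esrrb transgene. The sources used here do not say whether either line is a single clone. All cells had been kept in serum, LIF and 2 µM of the GSK3 inhibitor Chir99021, and were moved to serum, LIF and 250 nM of the FGF receptor inhibitor PD173074 for the 24 h before treatment. By title, 8h2h stands for 8 h of 250 nM 4OHT and then 2 h with a Mek inhibitor, 8h for 8 h of 4OHT alone, and 0h for no treatment. On 12 of the 18 arrays the source name goes against the title, since arrays titled 8h carry the source name with the Mek inhibitor and arrays titled 8h2h the one without it. The groups follow the titles here, and each result below is that of arrays titled 8h2h against arrays titled 0h. These groups differ in 4OHT, in the inhibitor and in time after the first sample, and the 3 cannot be told apart.

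Raf phosphorylates the kinase Mek, Mek phosphorylates ERK, and active ERK turns on immediate early genes such as Fos and Egr1 together with its own brakes, the Dusp phosphatases and the Sprouty and Spred proteins. Many of these transcripts are short-lived, so their level follows the activity of the cascade closely. In mouse embryonic stem cells FGF4 is the main natural input to the cascade, ERK activity favours the exit from the naive pluripotent state, and Mek inhibitors are used to hold cells in that state. Esrrb is a nuclear receptor and one of the transcription factors of the naive state.

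The targeted gene was read first. Values are the log2 of the processed signal relative to the 75th percentile of the same array, called log2 level below, and are given for slides a, b and c in that order. Esrrb, read by 1 probe, had log2 levels of 4.30, 3.26 and 4.00 on the KO-labelled 8h2h arrays, against 5.08, 4.74 and 5.27 on the KO-labelled 0h arrays. In the Rescue-labelled line it had 1.78, 1.53 and 1.57 at 8h2h, against 4.13, 4.21 and 4.87 at 0h. The probe was well above background on all of these arrays and, on each slide at each time, brighter in the line labelled KO, so its signal goes against the label. The sources used here do not place the probe inside or outside the deletion, and a probe outside it would check nothing. The lines are therefore named only as they are labelled, and 8h2h, 8h and 0h without a line name mean the KO-labelled arrays.

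One array stands apart. KO-labelled 8h2h on slide b had 89.1% of its spots well above background, against 49.0% to 58.3% on the other 8 KO-labelled arrays, and its negative-control spots had a median of 42, where the other 17 arrays of the series had 24.5 to 28. Its log2 levels correlated across genes at 0.943 and 0.945 with the other 8h2h arrays, which correlated with each other at 0.990. Among the 1635 genes well above background on no 0h array, the median difference between 8h2h and 0h was 2.78 on slide b, against 0.13 on slide a and 0.30 on slide c. For the 12923 genes above background on every 0h array it was −0.19 on slide b, −0.05 on slide a and −0.08 on slide c. Results are given with that array and, where it changes a call or a count, without it. All 10 embryonic stem cell markers, among them Pou5f1, Sox2 and Nanog, were above background on all 6 arrays, and their summed linear level was 491 to 623 at 8h2h, against 686 to 738 at 0h.

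Of the 16022 genes tested, 3595 (22.4%) differed between 8h2h and 0h by limma at an adjusted p below 0.05. Of these, 1768 (11.0%) were higher and 1827 (11.4%) lower at 8h2h, and without the slide b array 3434 differed (21.4%), 1720 higher and 1714 lower. Both fits called 2724 of them, 1477 higher and 1247 lower. The shares of 11.0% higher and 11.4% lower (10.7% and 10.7% without slide b) belong beside each list count below. By fitted value the rises were the larger changes, with 1078 genes higher by more than 2-fold and 306 lower by as much (921 and 520 without slide b). At 395 of the higher genes no 0h array was above background (317 without slide b), so their fitted folds are not measured. Among the 12719 genes above background on all 6 arrays, 1164 were higher and 1772 lower, and without slide b 1244 were higher and 1457 lower. Of these genes, 508 were higher by more than 2-fold and 257 lower by as much (501 and 317 without slide b). The median change over all genes tested was 0.00, and without the scaling to the 75th percentile it was 0.47, with 95.6% of the calls higher, against 49.2% with it, so directions here are relative to that percentile. In these bulk samples, fewer cells of a type and less RNA per cell cannot be told apart.

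**Figure D1:**
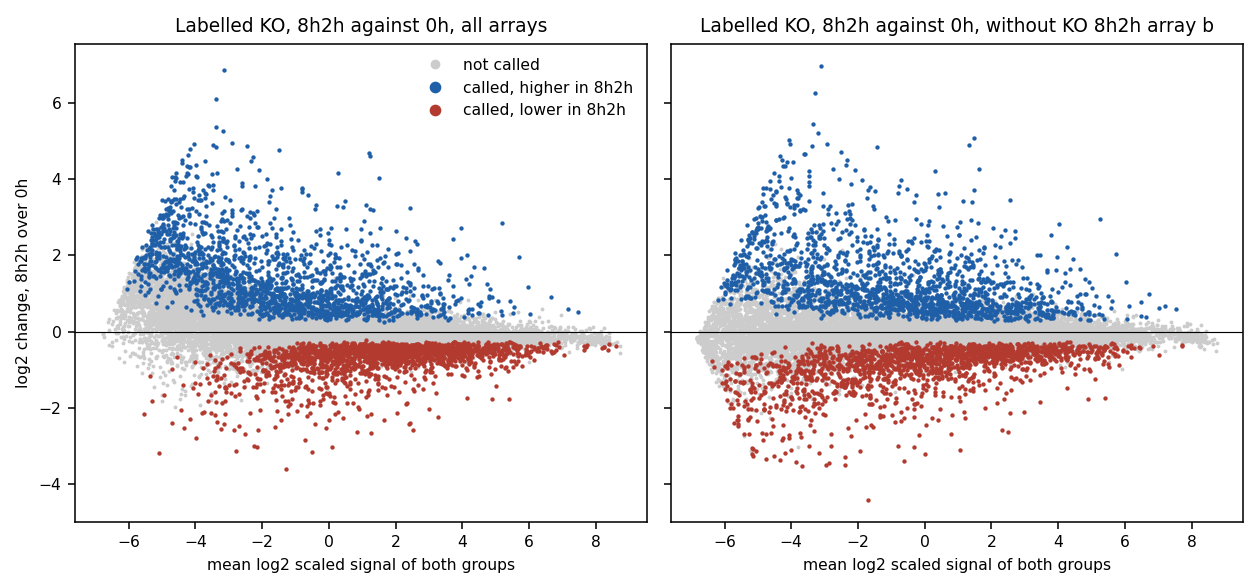
Each point is 1 of the 16022 genes tested, with the mean log2 level of the 8h2h and 0h arrays on the horizontal axis and the log2 change, 8h2h over 0h, on the vertical axis, with all arrays (left) and without the slide b array at 8h2h (right). Called genes are blue where higher (1768 left, 1720 right) and red where lower (1827 left, 1714 right), and the rises reach farther than the falls in both panels. At 395 of the higher genes on the left no 0h array was above background, so their sizes are not measured.

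The direct outputs of ERK were split. Of the 30 genes listed as ERK feedback regulators or immediate early genes, 8 were higher, 7 lower and 15 not called at 8h2h relative to 0h, with a median log2 change of 0.05 (7 higher, 6 lower and a median of −0.04 without slide b). Dusp6, the cytoplasmic ERK phosphatase, had log2 levels of 2.37, 2.30 and 2.34 at 0h, of 4.64, 4.56 and 4.56 at 8h and of 0.06, 0.36 and 0.10 at 8h2h. The 3 groups did not overlap, and 8h2h lay below both others, 4.48-fold below 0h (log2 −2.16, SE 0.23, adjusted p 1.48e-05). Egr1, an immediate early zinc finger factor, had 1.53, 1.48 and 1.63 at 0h, 4.22, 4.07 and 4.16 at 8h and −0.90, −0.64 and −0.64 at 8h2h. It was thus also lowest at 8h2h, 4.82-fold below 0h (log2 −2.27, SE 0.15, adjusted p 2.31e-07). Myc, the growth-promoting factor, had −1.68, −1.14 and −1.39 at 8h2h, against 0.67, 0.48 and 0.27 at 0h, a difference of −1.87 (SE 0.14, adjusted p 6.23e-07). Fos, the AP-1 subunit, differed by −1.68 (SE 0.31, adjusted p 0.00125), with its slide b array at −2.73 and the others at −4.23 and −4.02. Spry4, a Sprouty inhibitor of receptor signalling, differed by −2.20 (adjusted p 0.000782), but only 1 of the 3 arrays at 8h2h, that of slide b, read it above background. Without that array it was at least 4.80-fold lower. Il17rd, a membrane inhibitor of FGF signalling chosen after its values were seen, was lower by a log2 difference of −0.71 (adjusted p 0.00226).

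Other brakes of the same cascade were above the untreated level. Dusp4, the nuclear ERK phosphatase, had log2 levels of −2.38, −1.98 and −2.0 at 0h, of 2.27, 2.51 and 2.65 at 8h and of 0.10, 0.24 and 0.51 at 8h2h. Its 8h2h arrays lay between the other groups without overlap, 5.27-fold above 0h (log2 2.40, SE 0.14, adjusted p 7.88e-08). Dusp6 and Dusp4, 2 phosphatases of the same kinase, therefore lay on opposite sides of 0h. The nuclear phosphatases Dusp2 and Dusp5, chosen after their values were seen, were also higher, by log2 1.39 (adjusted p 0.000781) and 1.42 (adjusted p 0.00525), although just 1 of the 3 arrays at 0h read Dusp5 above background. Phlda1, a pleckstrin-domain protein induced by growth factors, had 2.36, 2.65 and 3.41 at 8h2h, against 1.19, 1.86 and 1.86 at 0h (log2 1.16, adjusted p 0.0287). Spred1, an inhibitor of Raf activation, was higher by 0.68 (adjusted p 0.024). Both were picked after their values were seen. The Phlda1 call was lost without 0h on slide a or 8h2h on slide c (adjusted p up to 0.112), and the Spred1 call without 0h on slide b or c or 8h2h on slide a (up to 0.086). Etv4, an ETS factor downstream of FGF signalling, had 5.25, 4.57 and 5.12 at 8h2h, against 3.59, 3.38 and 3.64 at 0h (log2 1.45, SE 0.29, adjusted p 0.00285), and did not differ beyond the test from 8h (log2 −0.33, adjusted p 0.547). Its relative Etv5 was lower than 0h by −0.39 (adjusted p 0.0382), a call lost without any 1 of 4 arrays, 0h on slides a and b and 8h2h on slides b and c (adjusted p 0.0682 to 0.124). Egr3 was above background on no 8h2h array and no 0h array, so its place among the 8 higher genes carries no fold. Spred3 was called higher (log2 1.24, adjusted p 0.0329) but not without 8h2h on slide b (0.0837) or 0h on slide b or c (up to 0.126). It too was picked after its values were seen.

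Another set lay near 0h. The Sprouty gene Spry2 had 1.49, 1.49 and 1.03 at 0h, 3.54, 3.53 and 3.73 at 8h and 1.32, 0.86 and 1.27 at 8h2h, a difference from 0h of −0.19 (SE 0.16, adjusted p 0.419). The phosphatase gene Dusp1 (−0.32, adjusted p 0.307), the AP-1 subunit Junb (−0.19, adjusted p 0.526) and Zfp36, an RNA-decay factor (−0.16, adjusted p 0.467), did not pass the test either. The last 3 were chosen after their values were seen, and the 8h arrays lay above both other groups for each of them. Relative to 8h, where 7.35% of all genes were called, 4.14% higher and 3.20% lower, 23 of the 30 list members were lower at 8h2h and 0 higher, with a median difference of −1.63. Without slide b, 22 were lower and 0 higher, where 5.83% of all genes were called, 3.28% higher and 2.55% lower. This comparison shares its 8h2h arrays with the one against 0h.

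**Figure D2:**
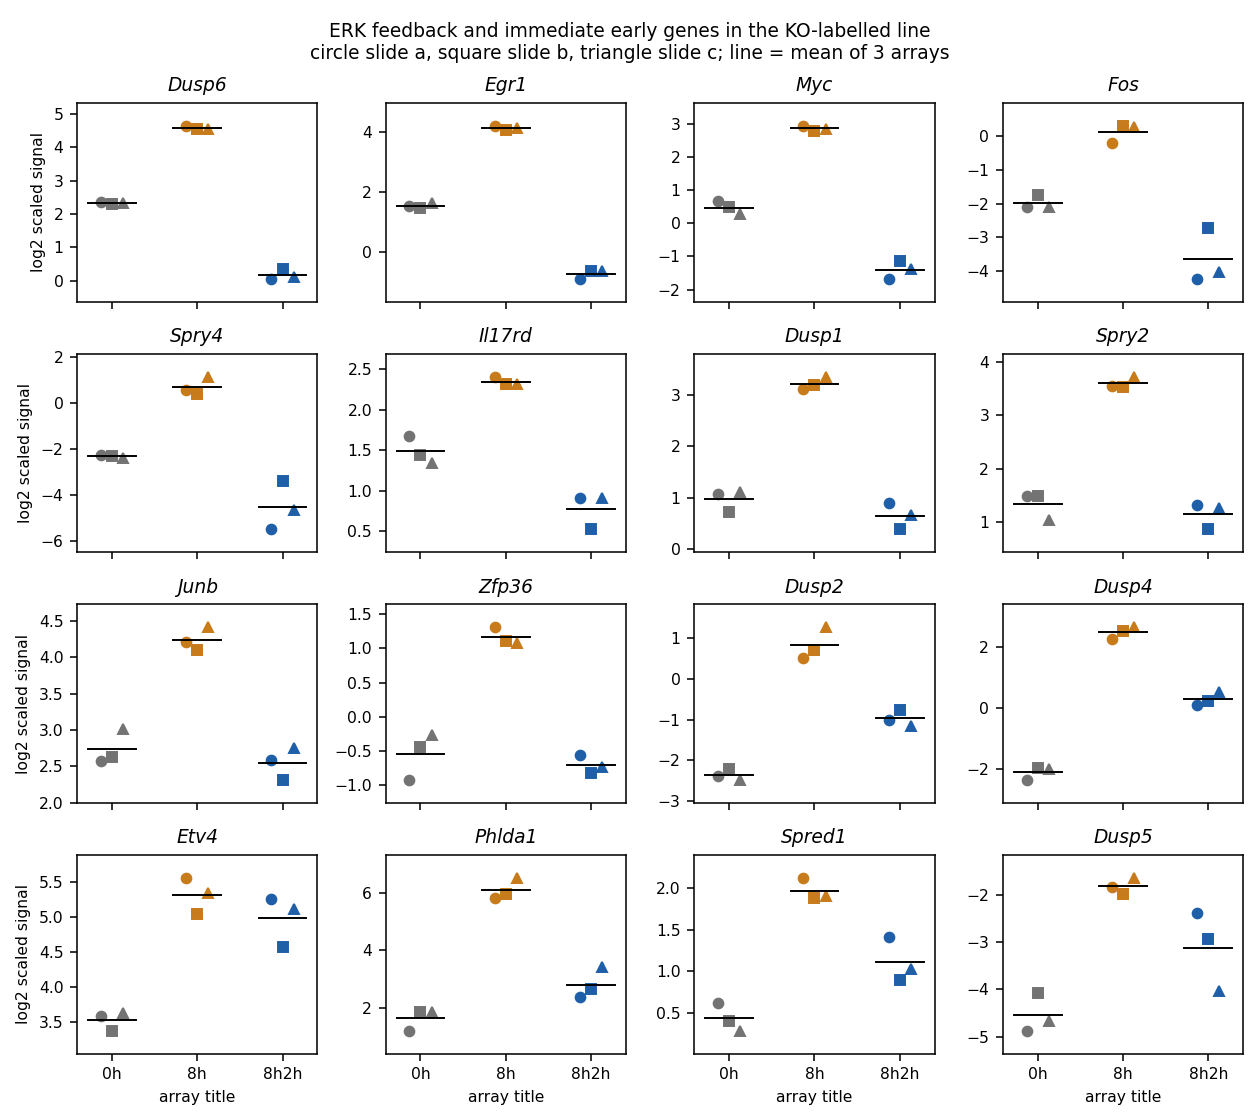
Log2 level (vertical axis) of ERK feedback and immediate early genes on each KO-labelled array titled 0h, 8h and 8h2h, 1 point per array with its slide as the symbol, and the mean of the 3 arrays as a line. At 8h2h Dusp6, Egr1 and Myc lie below their 0h arrays, Dusp4 lies above them, and Spry2 overlaps with them.

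The promoters of this list were read for 4 motifs on both strands. The table of RefSeq promoters on build GRCm38.p6 spans 250 bases before to 50 bases after each gene start, and it held 27 promoters of 21 of the 30 genes. The CArG box, the site of serum response factor, was in 6 of the 27, from Dusp5, Egr2 and Zfp36, against 535 of all 32851 promoters (1.63%). The ETS motif CCGGAAGT was in 0 of the 27 (3.89% of all) and the AP-1 motif TGACTCA or TGAGTCA in 0 (5.2% of all). The CRE motif TGACGTCA was in 1, that of Dusp1 (1.79% of all). Several promoters of 1 gene overlap and are not separate evidence. The Dusp5 and Zfp36 promoters are shown because both genes were high at 8h, while at 8h2h Dusp5 was above 0h and Zfp36 was not called. Each sequence covers the 250 bases before the start, 5′ to 3′ on the gene's strand, with the CArG boxes in capitals, at chr19:53528895-53529144 on the plus strand for Dusp5 and at chr7:28379229-28379478 on the minus strand for Zfp36.
Dusp5: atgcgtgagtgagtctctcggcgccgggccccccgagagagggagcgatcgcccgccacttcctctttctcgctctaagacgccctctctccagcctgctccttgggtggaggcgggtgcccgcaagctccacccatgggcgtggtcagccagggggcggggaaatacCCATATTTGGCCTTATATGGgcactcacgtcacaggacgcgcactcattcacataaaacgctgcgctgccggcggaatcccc
Zfp36: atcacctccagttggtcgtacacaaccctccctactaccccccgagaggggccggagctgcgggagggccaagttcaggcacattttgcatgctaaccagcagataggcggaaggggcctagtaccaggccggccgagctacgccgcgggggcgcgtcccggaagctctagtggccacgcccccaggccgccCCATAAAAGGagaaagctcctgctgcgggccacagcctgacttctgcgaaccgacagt
Dusp5 had 2 boxes next to each other and Zfp36 had 1, and all of them lay in the part of the window nearest the start. A box is a match of letters here, and binding was not measured.

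Genes of secreted factors and proteases, many of them late targets of ERK, were mostly higher or not called. Of 20 members tested of 28 listed, 9 were higher and 0 lower, with a median log2 change of 1.38, but without slide b 7 were higher and 2 lower with a median of 0.80. Ccl20, a chemokine, had −2.23, −2.35 and −1.82 at 8h2h and was not above background at 0h, so that it was at least 4.94-fold higher (adjusted p 5.20e-07). At 8h it had 3.35, 3.62 and 4.11, and 8h2h lay below that by −5.83 (adjusted p 1.63e-07). Vgf, a secreted neuropeptide precursor, had 2.18, 2.24 and 2.64 at 8h2h, against −1.99, −1.0 and −2.46 at 0h (log2 4.17, SE 0.29, adjusted p 2.49e-07). It did not differ beyond the test from 8h (−0.43, adjusted p 0.42). Mmp9, a matrix protease, was higher by 2.06 (adjusted p 0.00305), with 1 of 3 arrays at 0h above background. Plaur, the urokinase receptor, was higher by 1.20 (adjusted p 0.00116), while Hbegf, an EGF-family ligand, differed by −0.47 (adjusted p 0.13). Both were chosen after their values were seen. Fgf5 was above background on the slide b array alone at 8h2h, so its call (log2 1.85, adjusted p 0.00723) rests on dim spots.

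In the cascade itself, 2 of 22 genes tested of 23 listed were higher and 7 lower (2 and 5 without slide b). Fgfr1, the main FGF receptor of these cells, had 2.52, 2.41 and 2.66 at 8h2h, against 3.48, 3.67 and 3.46 at 0h (log2 −1.0, adjusted p 0.00518). Its ligand Fgf4 was lower by −0.95 (adjusted p 0.00448) and the kinase Araf by −0.67 (adjusted p 0.000116). A second, dimmer Araf probe went the other way, by 0.22 (0.31 without slide b), so the fall of Araf rests on its brightest probe. Shc1, an adaptor of receptor tyrosine kinases, was higher by 0.60 (adjusted p 0.00529). The receptors Fgfr4 and Kit, from outside that list, moved by more. Fgfr4 had 1.46, 0.78 and 1.59 at 8h2h, against −2.02, −2.23 and −1.92 at 0h, a 10.1-fold rise (log2 3.33, adjusted p 2.29e-07). Kit, the stem cell factor receptor, fell by 1.29 on the log2 scale (adjusted p 0.00945). These 2 belong to a list of 21 genes that growth signals hold down or that rebound when Mek is blocked. Of that list 2 were higher, 2 lower and 17 not called (2 higher and 2 lower also without slide b). That is near the shares over all genes tested, 11.0% higher and 11.4% lower.

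Several naive pluripotency genes were lower at 8h2h. Of the 24 tested, 2 were higher and 11 lower than at 0h, with a median of −0.61 (2 higher, 8 lower and −0.42 without slide b). Nanog, a homeobox factor of the naive state, had 3.84, 3.42 and 3.64 at 0h, 0.48, −0.07 and −0.27 at 8h and 1.82, 0.70 and 1.17 at 8h2h. It was 5.29-fold below 0h (log2 −2.40, SE 0.34, adjusted p 0.00017), and its difference from 8h missed the threshold (1.18, adjusted p 0.0508) but passed it without slide b (1.45, adjusted p 0.0273). Jam2, an adhesion molecule, was lower by −2.23 (adjusted p 0.000457), Fbxo15, an F-box protein, by −1.76 (adjusted p 1.97e-06) and Tcl1, a cofactor of Akt, by −1.53 (adjusted p 0.000916). Esrrb itself was lower by −1.18 (SE 0.26, adjusted p 0.00525).

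The Klf factors lay elsewhere. Klf2 had 5.18, 4.95 and 5.54 at 0h, 3.40, 3.35 and 2.76 at 8h and 5.39, 4.79 and 5.25 at 8h2h, which overlapped with 0h (log2 −0.08, SE 0.20, adjusted p 0.804) and exceeded 8h by 1.97 (adjusted p 2.20e-05). Klf4 had 5.86, 5.38 and 5.82 at 0h, 3.87, 3.26 and 3.26 at 8h and 5.46, 4.46 and 5.39 at 8h2h. It differed from 0h by −0.58 (adjusted p 0.117, and 0.0194 with the slide as a block) and from 8h by 1.64 (adjusted p 0.0012). Tbx3, a T-box factor, was lower than 0h by −1.10 (adjusted p 0.0367, and 0.139 without slide b) and Zfp42, also called Rex1, by −0.63 (adjusted p 0.023, and 0.0847 without slide b). Both calls were also lost without 0h on slide a or c (up to 0.142 for Tbx3 and 0.0943 for Zfp42). Tfcp2l1, a target of LIF signalling, differed by −0.93 (adjusted p 0.0701, and 0.0214 without 8h2h on slide a). Against the trend of the list, the lysosomal mannosidase gene Manba was higher by 1.40 (adjusted p 0.0105) and Nr0b1, a nuclear corepressor picked after its values were seen, by 0.87 (adjusted p 0.00798).

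Among 14 genes of the general pluripotency network, 2 were higher and 6 lower (likewise without slide b). Pou5f1, which encodes Oct4, had 6.25, 5.81 and 6.19 at 8h2h, against 5.88, 6.06 and 6.14 at 0h, and the groups overlapped (log2 0.06, SE 0.15, adjusted p 0.814). Its partner Sox2 was lower by −0.68 (adjusted p 0.00266). Foxd3, a forkhead factor, had 1.38, 1.22 and 1.44 at 0h, 2.25, 1.93 and 2.06 at 8h and −0.13, −0.56 and −0.37 at 8h2h. Its 8h2h arrays were thus the lowest, 3.25-fold below 0h (adjusted p 4.36e-05). Tdgf1, the Nodal coreceptor, fell by 1.0 on the log2 scale (adjusted p 0.00011), and Dppa4, a chromatin-associated factor, rose by 0.69 (adjusted p 0.0384), a call lost without any 1 of the 3 arrays at 0h or without 8h2h on slide a or c (0.0641 to 0.105). In the list of 16 LIF and Stat3 targets 1 was higher and 2 lower (1 and 3 without slide b). Over all genes tested the shares were 11.0% higher and 11.4% lower.

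Genes of the formative and primed epiblast, the states that follow naive pluripotency, went both ways. Of 22 tested of 23 listed, 10 were higher and 4 lower, with a median of 0.61 (10 higher, 4 lower and 0.46 without slide b). Among the higher ones, Foxa2, T, Lef1, Krt18 and Cdh2 are also counted in other lists below, so the lists are not separate evidence. Pou3f1, a POU factor also called Oct6, had 1.70, 1.97 and 1.81 at 8h2h, against −0.70, 0.22 and −0.37 at 0h (log2 2.11, SE 0.22, adjusted p 1.02e-05). Lef1, a Wnt effector, was higher by 2.90 (SE 0.52, adjusted p 0.00117), and its 0h arrays were spread over −1.14, 1.14 and −1.23. The de novo methyltransferase Dnmt3a was higher by 1.01 (adjusted p 0.00387), while Dnmt3b differed by 0.47 (adjusted p 0.155, and 0.0185 without 0h on slide b). The zinc finger genes Zic2 and Zic5 were lower, by −2.17 (adjusted p 0.00118) and −2.05 (adjusted p 0.0106), with the slide b array above the other 8h2h arrays in both. Slide b was also the highest for both genes at 0h and at 8h. Otx2, a homeobox factor of the epiblast, differed from 0h by −0.70 (adjusted p 0.0986). In the DNA methylation list 1 of 9 genes was higher and 3 lower (likewise without slide b), and the lower ones included the 5-methylcytosine oxidases Tet1 (−0.79, adjusted p 0.00017) and Tet2 (−1.45, adjusted p 0.000773).

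**Figure D3:**
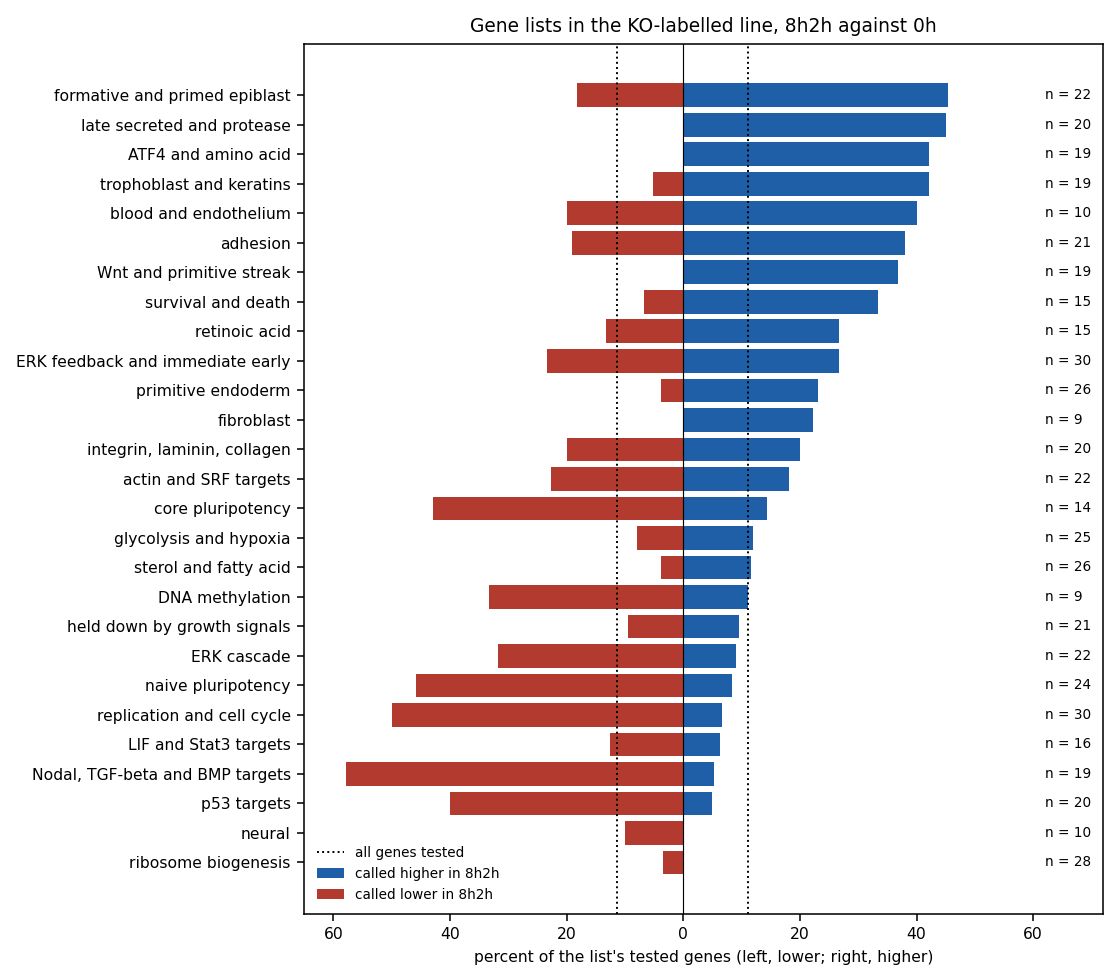
Percent of each list's tested genes called higher (blue, right of 0) and lower (red, left of 0) at 8h2h than at 0h in the KO-labelled line, with the number tested, and dotted lines at the shares over all genes tested (11.0% higher, 11.4% lower). The Nodal, replication, naive and core pluripotency lists reach farthest to the left, and the formative list (10 of 22) farthest to the right. Some genes belong to several lists.

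Nodal, TGF-beta and BMP target genes were mostly lower. Of 19 tested of 20 listed, 1 was higher and 11 lower, with a median of −0.59 (1 higher, 9 lower and −0.44 without slide b). Lefty2, a secreted Nodal antagonist and target, had −2.07, −1.62 and −2.53 at 8h2h, against 1.46, 0.41 and 1.38 at 0h, an 8.91-fold fall (SE 0.26 on the log2 scale, adjusted p 1.39e-06). Lefty1, its relative, had 2.56, 3.05 and 2.19 at 0h, −2.41, −1.69 and −5.47 at 8h and 0.23, 0.81 and −1.24 at 8h2h. It was below 0h by −2.67 (adjusted p 0.0159) and above 8h by 3.12 (adjusted p 0.0172), whereas Lefty2 did not differ beyond the test from 8h (−0.16, adjusted p 0.763). The first Lefty1 call was lost without 0h on slide b (0.0537) or 8h2h on slide c (0.0662), and the second without 8h2h on slide b (0.0618). Smad7, the inhibitory Smad, had 0.98, 0.40 and 0.77 at 0h, 0.75, 0.43 and 1.05 at 8h and −0.92, −1.39 and −0.86 at 8h2h. It was below 0h by −1.77 (adjusted p 1.87e-05) and below 8h by −1.80 (adjusted p 5.28e-05). Id3, a BMP target, was lower than 0h by −2.16 (adjusted p 0.000147), while Id2, of the same family, was the member that was higher (0.81, adjusted p 0.00766). Id2 was picked after its values were seen. Nodal itself was lower by −0.47 (adjusted p 0.024), but not without 8h2h on slide b (0.0593) or 0h on slide b or c (up to 0.0941).

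Wnt target and primitive streak genes were higher in 7 of the 19 tested of 23 listed and lower in 0, with a median of 1.02, and without slide b 8 were higher, 1 lower and the median 0.43. Sp5, a Wnt-induced zinc finger factor, had −0.88, −0.76 and −0.49 at 8h2h, against −4.15, −3.05 and −4.08 at 0h (log2 3.05, adjusted p 0.000145). T, which encodes Brachyury, was above background on no 0h array and at least 2.35-fold higher (adjusted p 0.00394). Eomes, a T-box factor, was higher by 1.60 (adjusted p 0.000184), and Cdx1, a caudal homeobox factor, by 1.82 (adjusted p 0.0164), a call lost without 0h on slide b or c or 8h2h on slide a (up to 0.0635).

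Genes of trophoblast and simple epithelia were also higher, 8 of 19 tested of 20 listed, with 1 lower and a median of 0.70 (8, 1 and 0.51 without slide b). Cdx2, the caudal factor of trophectoderm, had −0.44, −0.37 and −0.50 at 8h2h and was above background on no 0h array, at least 16.0-fold higher (adjusted p 2.49e-07). Hand1, a factor of trophoblast giant cells and mesoderm, had −1.11, −1.79 and −1.49 at 8h2h and was at least 7.88-fold higher (adjusted p 2.34e-05). Krt18, a keratin of simple epithelia, had 4.83, 4.88 and 5.06 at 8h2h, against 3.05, 3.27 and 2.62 at 0h, a 3.84-fold rise (adjusted p 9.21e-07). Gata3, a GATA factor of trophectoderm, was higher by 1.18 (adjusted p 0.00304) and Peg10, an imprinted gene of the placenta, by 1.24 (adjusted p 0.0118, and 0.0557 without 0h on slide c). The summed level of 7 trophoblast markers was 8.35 to 10.5 at 8h2h, against 3.69 to 6.13 at 0h. Of these markers 3, Cdx2, Hand1 and Plac1, were above background on no 0h array. Plac1 was also above background on at most 1 array at 8h2h, so no rise was read for it. Cdx2 and Hand1 are part of that sum and of the list, so it is no separate evidence, and the part of such cells in these values was not tested.

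Of the primitive endoderm list, 6 of 26 tested of 27 listed were higher and 1 lower. The median was 0.42 with slide b and 0.03 without it. Foxa2, a forkhead factor of endoderm, had −4.13, −3.55 and −3.92 at 0h, −3.61, −3.55 and −2.97 at 8h and −0.76, −1.63 and −0.26 at 8h2h. It was 7.90-fold above 0h (adjusted p 0.000184) and above 8h by 2.49 (adjusted p 0.00251). Sox7, an endoderm factor, was above background on no 0h array, at least 3.99-fold higher than 0h (adjusted p 0.000315) and higher than 8h by 1.76 (adjusted p 0.0204), a difference from 8h lost without 8h on slide b or c or 8h2h on slide b (up to 0.0766). Afp, which encodes alpha-fetoprotein, was at least 3.87-fold higher than 0h (adjusted p 6.02e-06). The summed level of the 7 primitive endoderm markers was 1.56 to 2.35 at 8h2h, against 0.505 to 1.17 at 0h, and Gata4 was above background on no 0h array and at most 1 array at 8h2h. The part of such cells was not tested.

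Markers of cells foreign to the culture were read as well. The 9 fibroblast markers tested of 14 summed to 10.1 to 15.0 at 8h2h, against 2.26 to 2.77 at 0h, and 2 of them were higher and 0 lower (also without slide b). Thy1, a surface glycoprotein, carried that difference, with 3.64, 3.10 and 3.87 at 8h2h, against 0.83, 1.23 and 1.16 at 0h (log2 2.46, adjusted p 7.96e-07). Without Thy1 the other 8 summed to 0.438 to 1.49 at 8h2h, with the highest on slide b, against 0.427 to 0.518 at 0h. The 5 blood and endothelial markers summed to 1.85 to 2.72 at 8h2h, against 0.678 to 0.713 at 0h, and in a wider list of 10 tested of 11 listed 4 were higher and 2 lower (3 and 2 without slide b). Ptprc, the leukocyte antigen CD45, was above background on no 0h array and at least 7.30-fold higher (adjusted p 2.29e-07). Kdr, the VEGF receptor, was higher by 2.97 (adjusted p 6.46e-05) and Runx1, a blood factor, by 2.76 (adjusted p 1.69e-06). The 2 lower members of the wider list were Tek (log2 −0.93) and Cd34 (−0.51). Neural markers summed to 6.0 to 6.76 at 8h2h, against 6.75 to 10.1 at 0h, and 0 of the 10 tested of 11 in the neural list were higher and 1 lower (likewise without slide b). The part of other cell types in these values was not tested.

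Retinoid genes included some of the largest rises, although the list as a whole had 4 of 15 tested of 18 listed higher and 2 lower (likewise without slide b), with a median of 0.21 that was −0.02 without slide b. Of all genes tested, 11.0% were higher and 11.4% lower. Aldh1a3, which makes retinoic acid, had −0.82, −0.86 and −0.46 at 8h2h and was above background on no 0h array, at least 13.2-fold higher (adjusted p 3.33e-07). Cyp26a1, which degrades it, had 1.25, 1.28 and 1.34 at 8h and −2.09, −1.66 and −2.25 at 8h2h, at least 5.03-fold above 0h (adjusted p 3.46e-05) and below 8h by −3.29 (adjusted p 1.48e-05). Aldh1a3 did not differ beyond the test from 8h (−0.81, adjusted p 0.246). Meis1, a homeobox target of retinoic acid, was higher than 0h by 2.37 (adjusted p 7.56e-07). The receptor gene Rara was lower by −0.87 (adjusted p 0.00903).

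In the adhesion list 8 of 21 genes were higher and 4 lower (likewise without slide b). For this and the next lists, the shares over all genes tested were 11.0% higher and 11.4% lower. Cldn3, a tight junction protein, had 1.27, 0.96 and 1.37 at 8h2h, against −1.18, −0.94 and −1.09 at 0h, a 4.82-fold rise (SE 0.12 on the log2 scale, adjusted p 3.66e-08). Cldn6, another claudin, was higher by 1.39 (adjusted p 0.00121). Cdh2, which encodes N-cadherin, had 1.56, 2.03 and 1.74 at 8h2h, against −0.07, −0.31 and −0.24 at 0h (log2 1.98, adjusted p 1.17e-05). Of 20 integrin, laminin and collagen genes tested of 21 listed, 4 were higher and 4 lower (likewise without slide b). Itga3, a laminin receptor subunit, was higher by 2.40 (adjusted p 7.89e-08) and Lama3, a laminin chain, by 2.22 (adjusted p 1.07e-05), while the chain gene Lamb3 was lower by −1.65 (adjusted p 0.00285). Of 22 actin and SRF target genes, 4 were higher and 5 lower (3 and 5 without slide b). Fhl2, a LIM-domain cofactor, had 1.17, 0.89 and 1.50 at 8h2h, against −2.22, −2.01 and −3.01 at 0h, a 12.1-fold rise (adjusted p 1.75e-07). Lmna, the nuclear lamin gene, was higher by 1.39 (adjusted p 8.49e-05). Myl9, a myosin light chain, was lower by −2.33 (adjusted p 0.00947), with the slide b array at 0.26 and the others at −1.63 and −2.07. Slide b was also the highest for Myl9 at 0h (1.69, against 1.07 and 0.79) and at 8h (0.45, against −1.22 and −1.79).

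Stress and growth programmes were read from further lists. Of 19 ATF4 and amino acid genes tested of 20 listed, 8 were higher and 0 lower, with a median of 0.56 (12, 0 and 0.79 without slide b). Chac1, a glutathione-degrading enzyme, had 1.87, 0.78 and 1.72 at 8h2h, against −0.19, −0.68 and 0.02 at 0h (log2 1.74, adjusted p 0.0067). Nupr1, a stress-induced chromatin protein, was higher by 1.59 (adjusted p 0.0181, and up to 0.0716 without 0h on slide b or 8h2h on slide a or c), the receptor gene Vldlr by 2.38 (adjusted p 9.25e-05) and Ddit3, which encodes CHOP, by 1.12 (adjusted p 0.000346). Of 20 p53 targets 1 was higher and 8 lower, with a median of −0.34 (1, 7 and −0.32 without slide b). Among the lower ones were the antiproliferative gene Btg2 (−1.20, adjusted p 0.0128, and 0.0589 without 0h on slide c), Trp53inp1 (−1.04, adjusted p 0.00426) and Phlda3, an Akt inhibitor (−0.91, adjusted p 0.00523). Perp, a desmosome protein, was the one that was higher (1.30, adjusted p 0.00389). Of 15 survival and death genes tested of 17 listed, 5 were higher and 1 lower (6 and 1 without slide b). The 3 that follow encode BH3-only proteins, which promote apoptosis. Bmf had −0.04, −0.36 and −0.10 at 0h, −0.63, −0.87 and −0.79 at 8h and 1.13, 0.24 and 1.08 at 8h2h, above 0h by 0.98 (adjusted p 0.00342) and above 8h by 1.58 (adjusted p 0.000272). Bcl2l11, which encodes Bim, had 0.94, 1.41 and 0.94 at 0h, 3.90, 3.84 and 3.72 at 8h and 1.73, 1.61 and 1.63 at 8h2h, above 0h by 0.56 (adjusted p 0.0101) and below 8h by −2.16 (adjusted p 3.30e-07). The dimmer probes of Bcl2l11 rose by more, by 1.48 to 1.99 above 0h (1.18 to 1.47 without slide b). Hrk was higher than 0h by 2.49 (adjusted p 0.00134).

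Of 30 replication and cell cycle genes tested of 31 listed, 2 were higher and 15 lower, with a median of −0.39 (2, 10 and −0.32 without slide b). E2f1, a factor of S-phase entry, had 0.65, 0.72 and 0.51 at 8h2h, against 1.57, 1.59 and 2.00 at 0h (log2 −1.10, adjusted p 3.46e-05). Rrm2, a subunit of ribonucleotide reductase, was lower by −0.92 (adjusted p 4.27e-05) and Mcm6, a subunit of the replicative helicase, by −0.75 (adjusted p 0.00207). Cdkn2b, an inhibitor of cyclin-dependent kinases, was higher by 1.34 (adjusted p 0.000665). Of 28 ribosome biogenesis genes 0 were higher and 1 lower by limma (0 and 0 without slide b), of 25 glycolysis and hypoxia genes 3 and 2 (4 and 0 without slide b), and of 26 sterol and fatty acid genes 3 and 1 (2 and 2 without slide b).

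**Figure D4:**
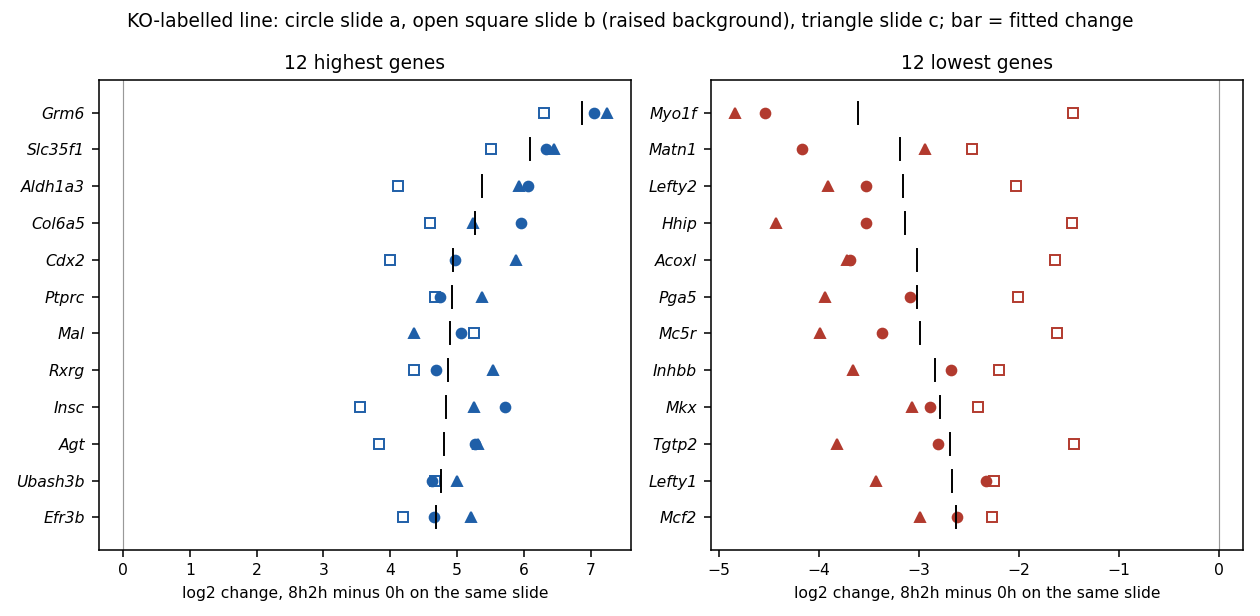
Log2 change, 8h2h minus 0h on the same slide (horizontal axis), for the 12 highest and the 12 lowest genes in the KO-labelled line, with the slide as the symbol and the fitted change as a bar. Among the 12 lowest genes the slide b change is the one nearest to 0 for all 12, and among the 12 highest for 10, most of which have only a bound at 0h.

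The 12 highest and the 12 lowest genes were taken among those called with and without slide b and changed the same way on all 3 slides. Of the 12 highest, 10 were above background on no 0h array, and their rises were at least 6.35-fold to at least 26.3-fold. Grm6, a metabotropic glutamate receptor, had 0.22, 0.05 and 0.56 at 8h2h and was at least 26.3-fold higher (adjusted p 6.63e-11). It was followed by the retinoid receptor Rxrg at at least 21.6-fold, the putative solute carrier Slc35f1 at at least 17.3-fold, Cdx2, the collagen gene Col6a5 at at least 14.9-fold, Aldh1a3, the spindle orientation adaptor Insc at at least 11.1-fold, the myelin and lymphocyte protein Mal at at least 10.7-fold, Ptprc and the angiotensinogen gene Agt at at least 6.35-fold. Of the 2 with signal at 0h, Efr3b, a plasma membrane scaffold for phosphatidylinositol 4-kinase, had 3.44, 3.12 and 4.12 at 8h2h, against −1.22, −1.07 and −1.09 at 0h, a 25.7-fold rise (log2 4.69, SE 0.25, adjusted p 3.28e-08). Ubash3b, a tyrosine phosphatase, was higher by 4.77 (adjusted p 5.61e-09), with 2 of the 3 arrays at 0h above background. Agt met the filter on background through 8h2h alone, so its call is no separate support for its direction.

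The 12 lowest genes fell by 2.63 to 3.61 on the log2 scale, and 6 of them were above background on all 8h2h arrays. Myo1f, an unconventional myosin, had −3.80, −1.49 and −4.02 at 8h2h, against 0.73, −0.03 and 0.82 at 0h, a 12.2-fold fall (adjusted p 0.000119). Its slide b array lay above the other 8h2h arrays but below all 0h arrays. Inhbb, the beta-B chain of activin and inhibin, was lower by −2.84 (adjusted p 6.87e-05), and Lefty1 and Lefty2 were in the same 12. Hhip, an antagonist of Hedgehog ligands, had −0.91, −2.15 and −0.56 at 0h, was above background on no 8h array, and had −4.44, −3.63 and −4.98 at 8h2h, below 0h by −3.14 (adjusted p 0.00298). The others were Acoxl (−3.02), Pga5 (−3.02), the melanocortin receptor Mc5r (−2.99), the interferon-induced GTPase Tgtp2 (−2.69), the exchange factor Mcf2 (−2.63), and Matn1 and Mkx, read above background on no 8h2h array and at least 1.98-fold and at least 3.70-fold lower. A second Mc5r probe of nearly the same mean level (−3.40, against −3.37) gave a difference of only −0.81, so the place of Mc5r here depends on the probe.

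The Rescue-labelled line gave a comparison of the same design on other arrays. There, 3409 genes (21.3%) differed between 8h2h and 0h, 1682 higher and 1727 lower. Without the slide b array of the KO-labelled line, which the model uses only for its estimate of the spread here, 4468 (27.9%) differed, 2177 higher and 2291 lower. In both lines 986 genes were higher and 955 lower, and 19 were called in opposite directions. The genes called the same way made up 54.0% of the calls in the KO-labelled line and 56.9% of those in the Rescue-labelled line. Without that array 1129 genes were higher and 1032 lower in both, which was 62.9% of the calls in the KO-labelled line and 48.4% of those in the Rescue-labelled line, and 29 were called in opposite directions. The size of the change differed between the lines, by the test of that difference itself, at 324 genes (2.02%), 191 with the larger value in the KO-labelled line (1.19%) and 133 with the smaller (0.830%). Without the slide b array at 8h2h of the KO-labelled line it differed at 507 genes (3.16%), 258 upwards (1.61%) and 249 downwards (1.55%). Of the 324, 255 were above background on every array of the 4 groups.

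Egr1 was the clearest such gene among the ERK outputs. It differed between 8h2h and 0h by −2.27 in the KO-labelled line and by 0.60 in the Rescue-labelled line, a difference of −2.87 (SE 0.22, adjusted p 4.70e-05). Its Rescue-labelled levels were 0.47, 0.67 and 0.57 at 8h2h, against −0.50, 0.16 and 0.24 at 0h, so that all KO-labelled 8h2h arrays lay below them and all KO-labelled 0h arrays above them. Dusp6 gave no detected difference between the lines (0.10, adjusted p 0.93). Of the 30 members of the ERK list, 0 differed upwards between the lines and 2 downwards, Egr1 and Egr3. Without slide b at 8h2h of the KO-labelled line 4 differed downwards, with Egr2 and Spry4 (−1.62, adjusted p 0.0225, against −1.06 and 0.405 with that array) as the others.

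Pluripotency and lineage genes also differed between the lines. Pou3f1 was higher at 8h2h by 2.11 in the KO-labelled line, against 0.32 in the Rescue-labelled line (difference 1.79, adjusted p 0.00987). Its 8h2h levels were 1.70 to 1.97 in the KO-labelled line, against 1.87 to 1.98 in the Rescue-labelled line, while at 0h they were −0.70 to 0.22, against 1.32 to 2.05. The lines were thus apart at 0h and close at 8h2h. Cdx2 followed the same order, with −0.50 to −0.37 at 8h2h in the KO-labelled line, against −0.36 to −0.11 in the Rescue-labelled line, and with 0h levels above background only in the Rescue-labelled line (−2.08 to −1.87). Krt18 rose by 1.94 in the KO-labelled line, against 0.49 in the Rescue-labelled line (difference 1.45, adjusted p 0.00407), and was higher in the Rescue-labelled line at both times. Foxa2 was higher at 8h2h by 2.98 in the KO-labelled line, against −0.20 in the Rescue-labelled line (difference 3.18, adjusted p 0.017). Cdh2 rose in both, by 1.98 in the KO-labelled line, against 3.32 in the Rescue-labelled line (difference −1.34, adjusted p 0.033). Esrrb fell by 1.18 in the KO-labelled line, against a value of −2.78 in the Rescue-labelled line (difference 1.60, adjusted p 0.0428). The last 2 differences were lost when single arrays were left out, for Cdh2 any of 9 arrays (adjusted p up to 0.0843) and for Esrrb any of 10 (up to 0.115).

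**Figure D5:**
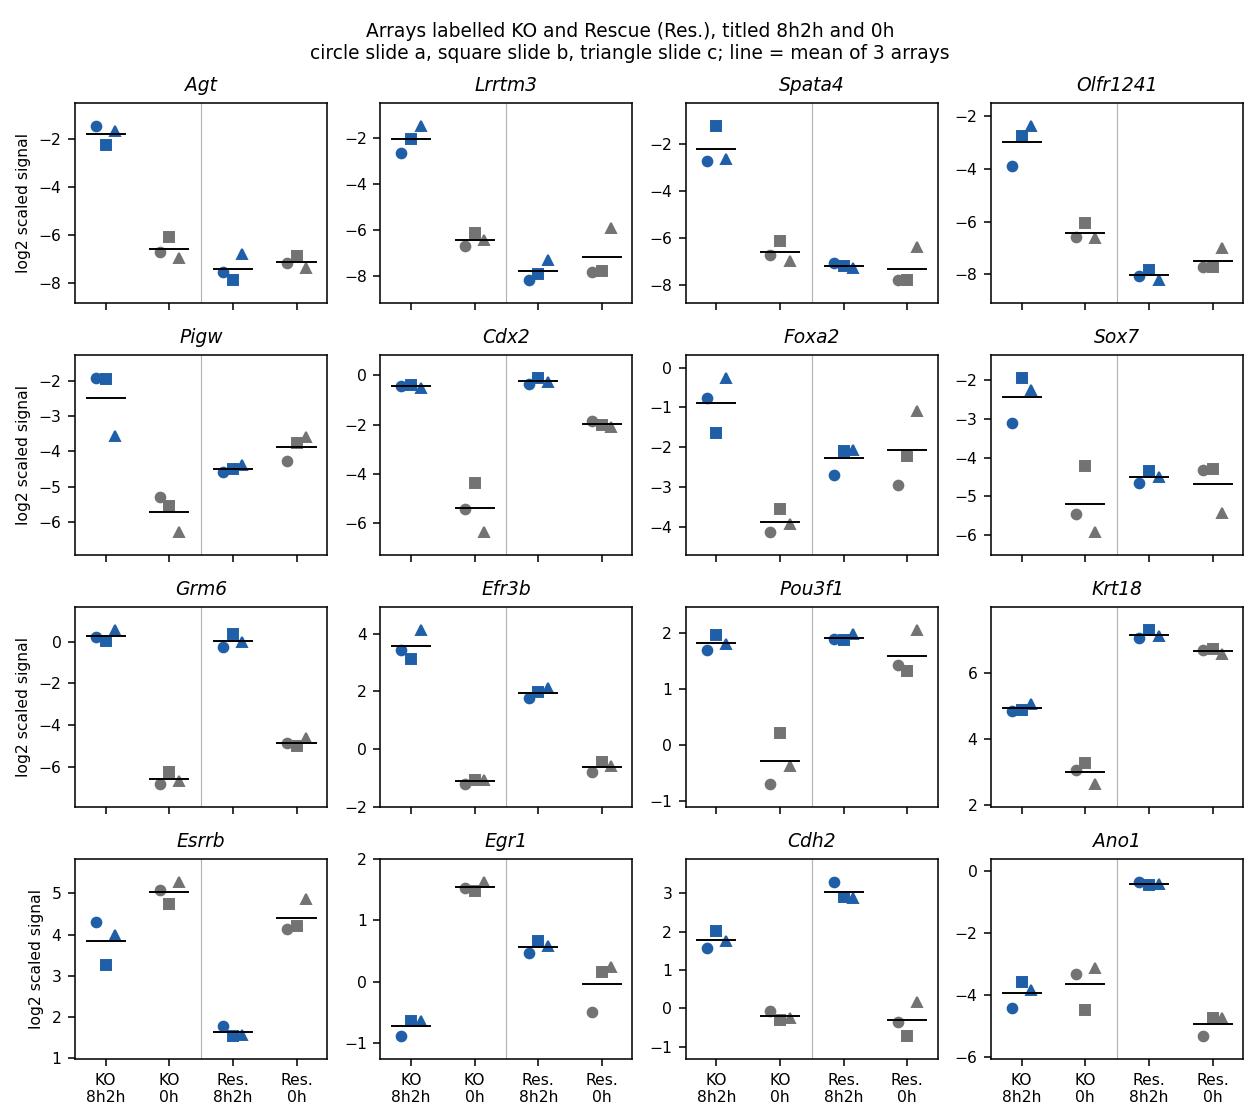
Log2 level (vertical axis) on each array at 8h2h and 0h in the KO-labelled line (left in each panel) and the Rescue-labelled line (right), for 16 genes whose change differed between the lines, with the slide as the symbol and the mean as a line. Egr1 falls in the KO-labelled line (log2 −2.27) and not in the Rescue-labelled line (0.60), and the Pou3f1 arrays of the lines lie apart at 0h and close together at 8h2h.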

How the data were processed

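RNA of 18 mouse embryonic stem cell samples, 3 slides with 1 array of each of the 6 groups, was measured on one-colour Agilent arrays. Samples were grouped by their titles. Per the labels, 100 ng of RNA per sample went into Agilent's low-input labelling kit. The dye is Cy5 in the labels, but the file headers list 1 green channel. Per the file headers, Agilent Feature Extraction 12.0.1.1 made the processed signal, an intensity with background subtracted, on grid build mm9. The deposited value table holds intensity values equal to that processed signal on all 18 arrays, and the deposited flags for background, saturation and outliers were used as other columns. Values of the log2 kind were computed here from the authors' deposited intensity, as log2 of the processed signal minus that of the array's 75th percentile over non-control spots, which was 297 to 765.

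Control spots were left out, and 107 probes with outlier flags. A probe was kept where it was well above background on every array of at least 1 of the 6 groups, which left 34194 of 56605 probes. Gene symbols came from matching each probe's accession in the array files to RefSeq transcripts of a single gene. Of the kept probes 23318 had a symbol, and the others were left out of the main fit. The brightest kept probe stood for a gene (5737 genes had several). The 16022 genes were fitted in 1 group-means model over all 18 arrays with limma 3.58.1 in R 4.3.3, and p-values were adjusted by Benjamini-Hochberg over all genes and called below 0.05. The script was tested on simulated data. No spot was saturated. A gene above background on no array of a group has only a bound there. Its fold is written as at least N-fold, from the brighter group's mean against, per array, the higher of the dimmer signal and the lowest signal well above background, which on KO-labelled arrays was 13.5 to 34.6. The number of arrays limits precision.

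The letters of the titles pair the samples. Each is 1 slide, and deviations from the group means correlated at 0.181, 0.146 and 0.141 between same-letter 8h2h and 0h arrays of the KO-labelled line. Nothing in the labels says that replicates came from separate cultures, so p-values measure the spread between these arrays, which may be technical. Genes named are the 12 highest and the 12 lowest, up to 6 called genes of each of 27 lists, 30 genes given whatever their values, and the 6 largest differences between the lines in each direction, with exceptions marked. Some named genes are not reported here. The comparison, these lists and the named genes were chosen with earlier results of these data known. Alternatives covered background correction, normalization, the deposited value table, the filter, probe choice, the slide as a block, array weights, the arrays in the fit, and leaving out each array.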

Additional observations from a re-analysis of the deposited data

Results flagged for a closer look

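The results listed here are those where the change between 8h2h and 0h differed between the KO-labelled and the Rescue-labelled line by limma's test of that difference, given as the KO-labelled minus the Rescue-labelled log2 change. That test called 324 of the 16022 genes, and 284 of them were also called without the slide b array at 8h2h of the KO-labelled line. The lowest signal read as well above background was 13.5 to 34.6 on the KO-labelled 8h2h and 0h arrays, against 6.44 to 10.6 on the Rescue-labelled ones, so dim genes were read to a lower level in the Rescue-labelled line.

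The largest differences towards the KO-labelled line were at Agt (5.06), Lrrtm3 (4.99), Spata4 (4.29) and Olfr1241 (3.98), which were above background on all 3 KO-labelled 8h2h arrays and on no other array of the 4 groups, so these values are not measured folds. Among these groups only KO-labelled 8h2h met the filter on background for them, so their calls set a bright group against background and are no separate support for the direction. Agt, the precursor of angiotensin, had log2 levels of −1.44, −2.24 and −1.64 on the KO-labelled 8h2h arrays and was also above background on no KO-labelled 8h array. Agt met the filter in no other group of the series. Mmd2 (3.91) was lower at 8h2h in the Rescue-labelled line (−1.98), and Pigw (3.86), a GPI anchor enzyme, was above background on no KO-labelled 0h array.

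Among genes of the lists and the highest genes, the difference was positive at Cdx2 (3.19), Foxa2 (3.18), Sox7 (2.58), Efr3b (2.12), Grm6 (1.99), Pou3f1 (1.79), Dnmt3a (1.69), Esrrb (1.60), Fhl2 (1.52), Krt18 (1.45), Nr0b1 (1.28), Slc35f1 (1.27), Zfp42 (1.16), Itga3 (1.15) and Tet1 (0.67). The KO-labelled 0h arrays were all below background for Cdx2, Sox7, Grm6 and Slc35f1, so their values are not measured folds either. Dnmt3a was higher at 8h2h in the KO-labelled line (1.01) and had −0.68 in the Rescue-labelled line. Leaving out single arrays ended the call of a line difference for Esrrb, Fhl2, Mmd2, Nr0b1, Slc35f1, Sox7, Tet1 and Zfp42, with adjusted p up to 0.128, and for Sox7 the slide b array of the KO-labelled line at 8h2h was among them (0.0565).

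The difference was negative at Cdh2 (−1.34), Ptprc (−2.03), Egr3 (−2.59), Egr1 (−2.87), Ptpn22 (−2.99), Togaram2 (−3.03), Cntnap4 (−3.10), Stac (−4.20) and Ano1 (−4.84). Egr3, Ptpn22, Togaram2, Cntnap4 and Stac were above background on the 3 Rescue-labelled 8h2h arrays and on none of the other arrays of the 4 groups, and Ptprc on no 0h array of either line, so these values are not measured folds. For all of these but Ptprc, only Rescue-labelled 8h2h met the filter among the 4 groups, so their calls are no separate support for the direction. Ano1, a calcium-activated chloride channel, had −0.35, −0.45 and −0.42 on the Rescue-labelled 8h2h arrays, against −5.34, −4.76 and −4.74 at 0h, and −4.43, −3.57 and −3.84 on the KO-labelled 8h2h arrays, against −3.33, −4.49 and −3.11 at 0h. Single arrays ended the call for Cdh2 and Ptprc (adjusted p up to 0.122). Groups of 3 arrays are too small for a test of outlying samples.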

How the results depend on the processing

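Fold bounds, dim genes and the number of arrays limit these results, and signals near background on the slide b array at 8h2h were raised. Over 4692 comparisons of a result with an alternative, 4131 kept direction and call, 526 lost the call, 13 gained one and 22 changed sign, none of the 22 at a called gene except Etv5. The deposited value table was among the alternatives and equals the processed signal on all 18 arrays, so its comparisons were bound to keep direction and call. Uncalled differences from 8h and between the lines were not among the 4692, so calls gained there were not counted. The 3595 genes called between 8h2h and 0h (1768 higher, 1827 lower) became 2356 without scaling (104 lower), 1200 with only the 6 arrays compared (739 and 461), 2176 with the 9 KO-labelled arrays (1115 and 1061), 6189 with array weights (2729 and 3460, with a weight of 0.0801 for the slide b array) and 1384 past 2-fold (1078 and 306). Normexp background correction gave 1114 higher. Leaving out each of the 6 arrays compared gave 2746 to 3703. The 1177 genes between 8h2h and 8h became 769 with normexp, 781 with quantile normalization, 340 without scaling, 135 with only the compared arrays, 366 with the 9 KO-labelled arrays, 2360 with weights and 513 past 2-fold, and 576 to 1298 with 1 array left out (576 without 8h on slide c, 769 without 8h on slide a). The 324 line differences became 190 with normexp, 45 without scaling, 157 without the filter, 81 with only the compared arrays, 1940 with weights, and 126 to 507 with 1 array left out. KO-labelled 8h2h on slide b gave 507, 0h on slide a 157 and 0h on slide c 193, and in the Rescue-labelled line 8h2h on slides a, b and c gave 199, 126 and 140 and 0h on slide b 204. The 3409 genes of the Rescue-labelled line became 1689 without scaling, 7124 with weights, 1299 past 2-fold, 2443 to 3043 with 1 of its own arrays left out and 4468 without KO-labelled 8h2h on slide b. With the slide as a replicate block the counts were 4320, 1493, 477 and 4035. Among the results in the 4692 comparisons, the block changed the call of Klf4 only. With the block and without KO-labelled 8h2h on slide b, the line differences were 667 and the Rescue-labelled calls 5303. Signs turned at Klf2 (0.25 with normexp, 0.083 quantile, 0.39 unscaled, 0.062 with the block and without slide b, 0.11 with weights, −0.22 to 0.10 with 1 array left out), Pou5f1 (−5e-04 with normexp, −0.028 to 0.19 with 1 array left out), Zfp36 (0.066 with normexp, 0.31 unscaled), Junb (0.28 unscaled, 0.038 with the mean of probes, 0.084 with weights), Ptpn22 (−0.14 with normexp), Stac (−1.05 to 0.14 with 1 array left out) and, unscaled, at Ano1 (0.17), Dusp1 (0.15), Etv5 (0.073), Spry2 (0.28) and Togaram2 (0.24). The median of the primitive endoderm list was −5e-04 with quantile normalization, and that of the p53 and replication lists was 0.13 and 0.07 unscaled. The cause of these changes was not tested.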
